A study of Homo sapiens with 10 samples.

Results

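Replication-dependent histone genes supply the linker histone H1 and the core histones H2A, H2B, H3 and H4 that package newly copied DNA. They were taken here as every row of the count table whose symbol begins with HIST1H, HIST2H, HIST3H or HIST4H, is not named as a pseudogene, and averaged at least 10 counts over the 10 samples. Of 89 rows with such a symbol, 15 were named as pseudogenes and 44 of the other 74 fell under the count minimum, which left 30 members of 57353 gene symbols. The members were 2 H1, 7 H2A, 13 H2B, 4 H3 and 4 H4 genes, 22 of them in the HIST1 cluster on chromosome 6, 5 in HIST2 and 2 in HIST3 on chromosome 1, and 1, HIST4H4, on chromosome 12. Among the H2B rows, HIST2H2BD fits the rule by its name but is annotated as a transcribed pseudogene in GENCODE version 44 and is set apart where that matters.

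All 10 samples were LNCaP-C4-2 cells, a castration-resistant prostate cancer line. Carnitine palmitoyltransferase I (CPT1A), which passes long-chain fatty acids into mitochondrial oxidation, was lowered or raised by lentivirus. The NT line (n = 2) carried a control shRNA, called Scrambled in the labels and non-targeting in the methods, and the KD line (n = 3) an shRNA against CPT1A, both under Puromycin at 1 ug/ml. The EV line (n = 2) carried an empty vector and the OE line (n = 3) CPT1A cDNA, both under Blasticin, as the labels spell it, at 5 ug/ml. Each line is a single selected line, the sources used here describe no separate transductions, and the drug differs between the KD and OE arms, so p values measure the spread between samples of a line.

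A library held 23555205 to 28615770 counts, of which members took 5819 to 13673, or 0.0233% to 0.0524%. CPT1A itself stood at 265 and 262 counts scaled to library size by TMM (CPM) in NT, 81.2, 86.4 and 86.2 in KD, 326 and 318 in EV and 869.9, 914 and 861 in OE, so each line matched its label. Luminal prostate markers summed to 7223 to 13324 CPM, against 0.0905 to 0.487 for leukocyte, 6.28 to 9.46 for endothelial and 10.6 to 20 for fibroblast markers. The fibroblast sum was 10.9 and 12.7 CPM in NT, 20, 19.9 and 18.6 in KD, 10.6 and 11.6 in EV and 15.8, 13.7 and 13.6 in OE. Of its 7 markers, 3 were tested, and 3 (COL1A1, COL3A1 and PDGFRB) were called higher in KD and 2 (COL1A1 and PDGFRB) in OE. COL1A2 was at 0 in every sample and DCN and LUM averaged 0.2 and 0.7 counts. The endothelial sum was 7.13 and 6.51 CPM in NT, 6.82, 7.97 and 7.36 in KD, 6.28 and 6.45 in EV and 8.93, 9.46 and 8.74 in OE. Of its 4 markers, 1 was tested, and it was called higher in OE, by 0.51 on the log2 scale, and not called in KD. NT 1 was higher than NT 2 in 23 of the 30 members and EV 1 higher than EV 2 in 21.

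The mRNAs of these genes are made mainly in S phase and usually end in a stem-loop a short way after the stop codon, with no poly(A) tail. The stem-loop is bound by SLBP and guides U7 snRNP cleavage, mRNA use and rapid decay when DNA synthesis stops. Some of these genes can also be read through into longer, polyadenylated mRNAs, which is known from resting and differentiating cells. The libraries were made with a poly(A)-selecting mRNA kit, so these counts cover polyadenylated histone transcripts and whatever tail-less mRNA was carried along, and cannot be read as total histone mRNA. Fewer cells in S phase and less RNA per cell cannot be told apart in bulk samples either.

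The stem-loop was found within 150 bases after the stop codon in all 29 members with a coding model, and in the 41 such genes under the count minimum. In GENCODE version 44 on GRCh38, 10 forms of the 16-base element occurred. The forms below are shown because they are the mark of a replication-dependent transcript. Capitals mark the 6-base stems and lower case the 4-base loop. The first form is shared by 16 members, the second by 5, the third by 3, and the others each occurred in 1 member.
HIST2H2BE, chr1:149886188-149886203, minus strand: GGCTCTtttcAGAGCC
HIST1H2BK, chr6:27146366-27146381, minus strand: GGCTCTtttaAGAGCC
HIST1H4H, chr6:26285131-26285146, minus strand: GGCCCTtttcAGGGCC
HIST1H4I, chr6:27139654-27139669, plus strand: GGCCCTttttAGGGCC
HIST1H3E, chr6:26225596-26225611, plus strand: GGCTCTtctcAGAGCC
HIST1H2AK, chr6:27837885-27837900, minus strand: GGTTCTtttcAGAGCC
HIST1H2AG, chr6:27133515-27133530, plus strand: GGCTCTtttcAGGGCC
HIST2H2AC, chr1:149887391-149887406, plus strand: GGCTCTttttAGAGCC

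In 14 of the 29 coding members, GENCODE also held a transcript that runs more than 100 bases past the stem-loop, here called extended. Of the 41 coding genes under the count minimum, 3 had one. The extended members were HIST1H2AC and HIST3H2A of the H2A class, HIST1H2BC, HIST1H2BD, HIST1H2BE, HIST1H2BJ, HIST1H2BN, HIST2H2BE, HIST2H2BF and HIST3H2BB of H2B, HIST1H3E and HIST1H3H of H3, and HIST1H4H and HIST4H4 of H4. In 10 of the 14, the last 40 bases of the longest extended transcript held AATAAA, the signal that directs cleavage and polyadenylation. The signal, in capitals with its flanks, is shown for the most counted extended member of each core class that holds it.
HIST1H2AC: catgaggtAATAAAaggtaatg
HIST2H2BE: ttgttattAATAAAgttaccaa
HIST1H3H: tatgactaAATAAAatctgtat
HIST1H4H: tgtgaaaaAATAAAtgtttaag

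Members differed widely in level. Per kilobase of annotated exon and averaged over the 10 samples, HIST1H2BK stood highest at 109 CPM per kb, followed by HIST1H1C at 54.9, HIST2H2BE at 39.1 and HIST2H2BD at 36.5. The lowest were HIST3H2BB at 0.717, HIST1H1E at 0.837 and HIST1H3B at 0.890. In counts not divided by length, HIST2H2BE held 22.1% of all member CPM. In GENCODE version 44, HIST2H2BE spans chr1:149884459-149886682 on the minus strand as a single exon, HIST1H2BK chr6:27146361-27146855 and HIST1H1C chr6:26055740-26056470, also on the minus strand and without introns. HIST1H2AC, at chr6:26124145-26139116 on the plus strand, and HIST3H2A, at chr1:228434777-228457873 on the minus strand, also have a spliced model that joins the histone exon to exons far downstream. Of the 44 genes under the minimum, 16 had 0 counts in every sample, and the highest of the rest, HIST1H3J, averaged 8.80 counts. The 8 genes with an identical coding copy (HIST1H4J and HIST1H4K, and the HIST2H2AA, HIST2H3 and HIST2H4 pairs) were all under the minimum, and how the authors counted reads that fit several genes is not given in the sources used here. No coding member had an identical coding copy, and the closest found was HIST2H3D at 97.1% identity to HIST2H3A. Only coding sequences of equal length were compared. HIST1H1C, HIST1H1E and HIST2H2AC had none of equal length and HIST2H2BD has no coding model, so their nearest copies were not measured.

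Summed over the 30 members, the KD line was the lowest and the OE line the highest. Members summed to 411 and 362 CPM in NT, 235, 229.6 and 237 in KD, 434 and 390.4 in EV and 542, 558 and 529 in OE. The KD mean was 60.5% of the NT mean and the OE mean 131.73% of the EV mean, with no overlap in either arm, while EV and NT overlapped. All members passed the filter on low counts and were tested one by one, and no test was made over their sum.

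**Figure D1:**
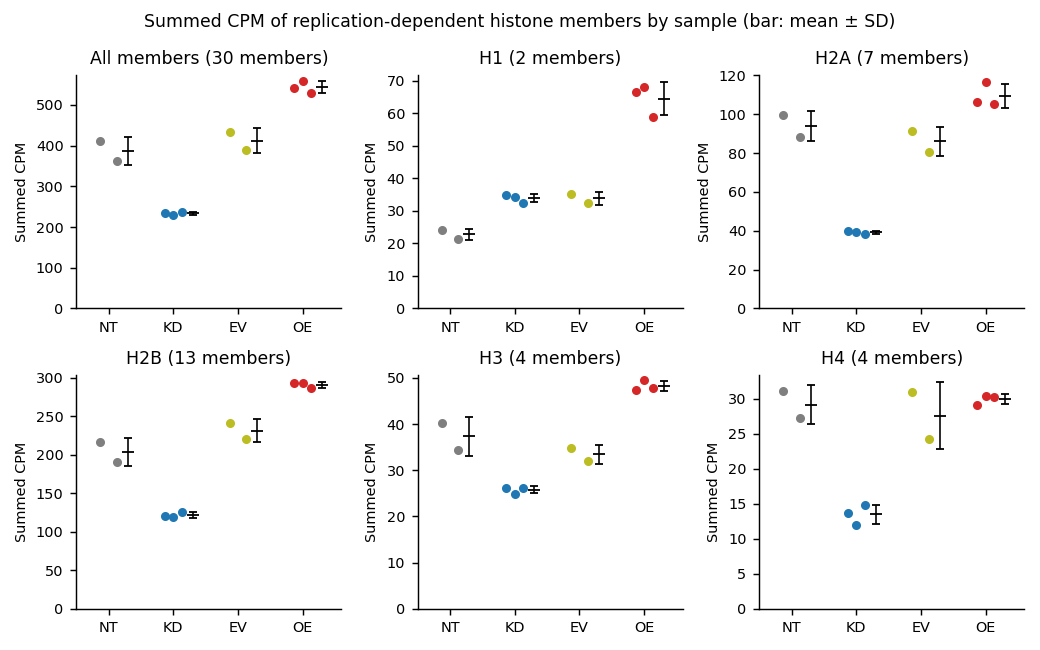
Summed TMM-scaled CPM of all 30 members and of each histone class (vertical axes, from 0) in the 4 lines (horizontal axes), with a point for each sample and a bar for the mean ± SD. KD lies under NT in every panel other than H1, where the 2 NT samples are the lowest, and H4 overlaps between EV and OE.

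The classes did not move alike. H1 summed to 24 and 21.5 CPM in NT, 34.9, 34.3 and 32.5 in KD, 35.3 and 32.4 in EV and 66.5, 68.1 and 58.7 in OE. It was higher in both manipulated lines than in their controls, by a log2 ratio of 0.58 in KD and 0.93 in OE, and EV also lay above NT. H1 was 5.88% ± 0.0739 (SD, n = 2) of member CPM in NT, 14.5% ± 0.692 (SD, n = 3) in KD, 8.20% ± 0.124 (SD, n = 2) in EV and 11.85% ± 0.654 (SD, n = 3) in OE. A share also rises when the sums of the other classes fall, as they did in KD. The H2A sum had the lowest ratio in KD, from 99.6 and 88.4 CPM in NT to 39.8, 39.6 and 38.3, a log2 ratio of -1.26, and stood at 91.3 and 80.8 in EV and 106, 117 and 105 in OE. H4 was next, with 31.1 and 27.2 CPM in NT and 13.7, 12 and 14.8 in KD, a log2 ratio of -1.11. Its values of 31.0 and 24.2 in EV and 29.1, 30.4 and 30.2 in OE overlapped. H2B, with 216 and 191 CPM in NT and 121, 119 and 126 in KD, and H3, with 40.3 and 34.4 in NT and 26.2, 24.9 and 26.2 in KD, gave log2 ratios of -0.74 and -0.53. In OE they were above EV by 0.33 and 0.53. These class ratios are descriptions without a test, and a few genes set them, since HIST3H2A and HIST1H2AC held most of H2A, HIST1H1C 98.4% of H1, HIST1H4H 72.6% of H4 and HIST1H3H 57.2% of H3. The median member change in KD was -0.11 in H2A, -0.59 in H2B, -0.57 in H3 and -1.12 in H4, so the order of the sums is not that of the single genes.

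In the comparison of KD with NT, which asks what lowering CPT1A did, 19 of 30 members were lower and 4 higher at an adjusted p under 0.05. Over all 17230 tested genes 28.4% were lower and 29.1% higher, 57.5% in all. DESeq2 called 19 members lower and 2 higher, and limma-voom 19 and 3. The median member log2 fold change was -0.55, beside -0.02 for all tested genes, and it was -0.29 without the 5 members whose spans hold part of another named gene. In 18 members the samples lay wholly below NT and in 5 wholly above, beside 35.7% and 34.9% of all tested genes. Members differed among themselves from -2.20 to 1.47 on the log2 scale. Without NT 1, 15 members were called, with a median of -0.35, and the lost calls were HIST1H2BC, HIST1H2BF, HIST1H2BN, HIST1H3B, HIST1H3H, HIST2H2AC, HIST2H2BD and HIST3H2BB. The other 15 held whichever library was left out.

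**Figure D2:**
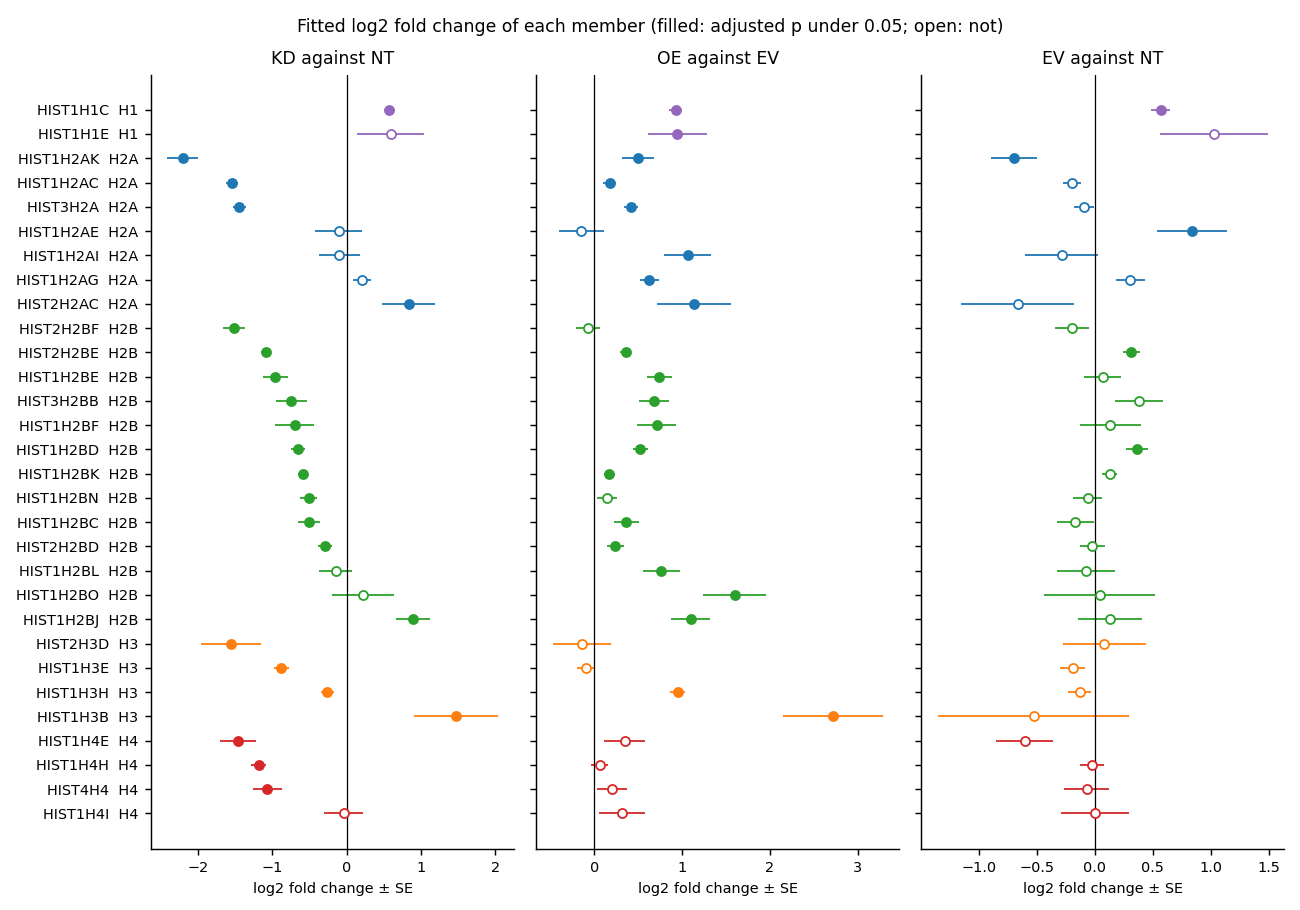
Fitted log2 fold change of each member with its SE (horizontal axes) in KD against NT, OE against EV and EV against NT, with members grouped and coloured by class on the vertical axis. Filled points have an adjusted p under 0.05. KD has 19 filled points below 0 and 4 above, OE has 21 above and 0 below, and EV against NT has 5 in all.

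The H2A members called lower in KD were HIST3H2A and HIST1H2AC, the most counted of the class, and HIST1H2AK, which had far fewer counts. HIST3H2A read 40 and 38.4 CPM in NT, 14, 15.5 and 13.8 in KD, 39.1 and 34.2 in EV and 46.7, 54.9 and 45.2 in OE. The KD samples were separate from all others and OE was highest. The test gave -1.44 ± 0.08 (SE), adjusted p = 5.00e-13 in KD and 0.42 ± 0.08 (SE), adjusted p = 1.02e-04 in OE. HIST1H2AC measured 46.8 and 38.8 CPM in NT, 14.5, 14.8 and 14.7 in KD, 39.6 and 35 in EV and 41.6, 43.3 and 41.6 in OE. KD was 2.92-fold lower than NT (-1.54 ± 0.08 (SE), adjusted p = 3.62e-14), while OE exceeded EV by 0.18, a call (adjusted p = 0.0491) that was lost without EV 2 or without any of the 3 OE samples, with DESeq2 (0.06), with at least 10 counts in every sample (0.0638) and with library size in place of TMM, where the value was 0.079 (0.391). HIST1H2AK stood at 4.34 and 3.46 CPM in NT, 0.996, 0.592 and 0.929 in KD, 2.46 and 2.35 in EV and 3.71, 3.30 and 3.17 in OE. It showed the largest fall of any member in KD, 4.60-fold (-2.20 ± 0.21 (SE), adjusted p = 2.72e-09), on 15 to 28 counts a KD sample, and was lower in EV than NT.

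None of the other H2A members was called lower in KD. HIST1H2AG gave 5.85 and 5.76 CPM in NT, 7.43, 6.35 and 6.34 in KD, 7.49 and 6.86 in EV and 10.7, 11.2 and 11.4 in OE. It rose in OE (0.63 ± 0.11 (SE), adjusted p = 3.37e-05), and its KD value was 0.21 ± 0.12 (SE) with an adjusted p of 0.138. HIST1H2AI came to 1.40 and 0.874 CPM in NT, 1.15, 0.75 and 1.26 in KD, 0.897 and 0.974 in EV and 1.91, 1.86 and 2.09 in OE. OE was above EV (1.06 ± 0.27 (SE), adjusted p = 0.00177), and KD overlapped NT. HIST1H2AE was counted at 0.755 and 0.755 CPM in NT, 0.766, 0.789 and 0.564 in KD, 1.56 and 1.14 in EV and 1.12, 1.22 and 1.32 in OE. EV and OE overlapped, as did NT and KD, and EV was above NT (0.84 ± 0.30 (SE), adjusted p = 0.0359), a call lost without NT 1, NT 2 or EV 1 and with DESeq2 or limma-voom. HIST2H2AC read 0.453 and 0.437 CPM in NT, 0.958, 0.789 and 0.663 in KD, 0.234 and 0.325 in EV and 0.518, 0.769 and 0.580 in OE. Its control samples averaged 9.25 counts, so it reached the member minimum only through KD and OE. This member, at 6 to 25 counts a sample, was called higher in KD at an adjusted p of 0.0497 (0.84 ± 0.36 (SE), adjusted p = 0.0497), which 12 of the alternative settings did not keep, and in OE with 1.14 ± 0.43 (SE), adjusted p = 0.0285, which was lost without EV 1 (0.183), EV 2 (0.066) or OE 2 (0.0914) and with DESeq2 (0.0841).

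Of the 13 H2B members, 10 fell in KD and 1 rose, and 11 rose in OE, beside 28.4% and 29.1% of all tested genes in KD and 25.6% in OE. The KD calls of HIST1H2BC, HIST1H2BF, HIST1H2BN, HIST2H2BD and HIST3H2BB were lost without NT 1. DESeq2 called 9 of the class higher in OE. HIST2H2BE measured 88.1 and 74.9 CPM in NT, 37, 37 and 41 in KD, 109 and 93.6 in EV and 131, 132.79 and 126 in OE. This gene, the member with most counts, was 2.12-fold lower in KD (-1.09 ± 0.07 (SE), adjusted p = 3.23e-12) and 1.28-fold higher in OE (0.36 ± 0.07 (SE), adjusted p = 9.11e-05). EV also exceeded NT here, by 0.31 on the log2 scale. HIST1H2BK stood at 57.6 and 51.7 CPM in NT, 35.3, 37.4 and 36.1 in KD, 61.2 and 58.3 in EV and 65.3, 66.1 and 70.3 in OE. It fell 1.51-fold in KD (-0.59 ± 0.06 (SE), adjusted p = 1.07e-08), although its annotated transcript ends at the stem-loop, and its rise of 0.17 in OE (adjusted p = 0.0183) was lost without EV 2 or OE 3 and with library size in place of TMM, where it was 0.073 (adjusted p = 0.297). HIST1H2BD gave 13 and 13.5 CPM in NT, 8.43, 8.68 and 8.13 in KD, 17.9 and 16.1 in EV and 25.9, 24.9 and 22.7 in OE. KD was lowest, then NT, EV and OE with no overlap between neighbours, and both arms passed the test (-0.66 ± 0.09 (SE), adjusted p = 1.99e-06 in KD, 0.53 ± 0.08 (SE), adjusted p = 1.11e-05 in OE).

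Not all H2B members followed this pattern in both arms. HIST1H2BJ came to 1.28 and 1.63 CPM in NT, 3.37, 2.21 and 2.55 in KD, 1.99 and 1.18 in EV and 3.55, 3.17 and 3.48 in OE. It rose in both arms, by 0.90 ± 0.23 (SE), adjusted p = 0.00182 in KD and 1.10 ± 0.22 (SE), adjusted p = 2.19e-04 in OE, and was the only extended member that did not fall in KD. HIST2H2BF was counted at 7.85 and 7.31 CPM in NT, 3.22, 2.21 and 2.55 in KD, 6.59 and 6.61 in EV and 5.74, 7.38 and 5.84 in OE. It fell 2.85-fold in KD (-1.51 ± 0.15 (SE), adjusted p = 5.76e-09), and OE overlapped EV. HIST1H2BO read 0.679 and 0.278 CPM in NT, 0.690, 0.592 and 0.431 in KD, 0.663 and 0.325 in EV and 1.75, 1.27 and 1.51 in OE. OE was above EV (1.60 ± 0.36 (SE), adjusted p = 6.26e-04), and KD overlapped NT. HIST2H2BD measured 18 and 18.4 CPM in NT, 14.7, 12.9 and 16.8 in KD, 17.8 and 18.1 in EV and 23.7, 19.7 and 20 in OE. The annotated pseudogene changed least of the called H2B members in KD, at -0.29 on the log2 scale with an adjusted p of 0.0138, a call lost without NT 1, NT 2 or KD 2 and with library size in place of TMM. It moved with the class in OE as well (0.24 ± 0.10 (SE), adjusted p = 0.0411), a call lost with DESeq2 (0.0512) and in other settings. The remaining H2B members, HIST1H2BC, HIST1H2BE, HIST1H2BF, HIST1H2BL, HIST1H2BN and HIST3H2BB, had log2 fold changes of -0.96 to -0.15 in KD and 0.15 to 0.76 in OE. HIST1H2BN did not pass the test in OE. HIST1H2BL did not pass it in KD, where it rested on the NT library used, with 0.44 (adjusted p = 0.182) without NT 1 and -0.55 (adjusted p = 0.046) without NT 2.

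The H3 members ranged widely, from -1.56 to 1.47 in KD. HIST1H3H stood at 18.9 and 16.9 CPM in NT, 15.3, 14.8 and 14.8 in KD, 17.8 and 14.8 in EV and 30.2, 33.9 and 30.5 in OE. It fell 1.20-fold in KD (adjusted p = 0.0159, lost without NT 1) and rose 1.93-fold in OE (0.95 ± 0.09 (SE), adjusted p = 3.66e-09). HIST1H3E gave 20.6 and 16.6 CPM in NT, 9.92, 9.51 and 10.9 in KD, 16.3 and 16.3 in EV and 15.9, 13.7 and 16 in OE. KD was separate and lower (-0.88 ± 0.10 (SE), adjusted p = 5.85e-08), and OE against EV was -0.10, which did not pass the test. HIST2H3D came to 0.641 and 0.675 CPM in NT, 0.268, 0.197 and 0.199 in KD, 0.624 and 0.771 in EV and 0.598, 0.679 and 0.619 in OE. Its KD fall (-1.56 ± 0.40 (SE), adjusted p = 0.00183) rests on 5 to 7 counts a KD sample, and its reads could be shared with near-identical copies. HIST1H3B rested on few reads as well, with 3 and 6 counts in NT, 20, 10 and 10 in KD, 4 and 2 in EV and 15, 25 and 19 in OE. It was called higher in both arms (1.47 ± 0.56 (SE), adjusted p = 0.0281 in KD, 2.72 ± 0.57 (SE), adjusted p = 3.08e-04 in OE), the KD call being lost without NT 1 or KD 1 and with DESeq2 (0.0598). The 4 control samples averaged 3.75 counts of HIST1H3B, so it reached the member minimum only through KD and OE, and its higher values there are partly fixed by that choice.

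None of the 4 H4 members was called in OE by edgeR's quasi-likelihood test, at an unadjusted p under 0.05 the count was also 0, and limma-voom and DESeq2 called 0. In KD, 3 of the 4 fell. Of all tested genes 28.4% fell in KD and 25.6% rose in OE. HIST1H4H was counted at 22.7 and 19.6 CPM in NT, 9.27, 8.40 and 10.2 in KD, 22.8 and 18.7 in EV and 20.1, 22.5 and 22.4 in OE. KD was 2.27-fold lower than NT (-1.18 ± 0.10 (SE), adjusted p = 5.18e-10), and the other 3 lines overlapped. HIST4H4 read 3.81 and 3.53 CPM in NT, 2.07, 1.46 and 1.72 in KD, 4.13 and 2.84 in EV and 4.39, 4.12 and 3.56 in OE. The KD fall was -1.07 (-1.07 ± 0.19 (SE), adjusted p = 4.40e-05). HIST1H4E measured 2.87 and 2.94 CPM in NT, 1.19, 0.868 and 1.09 in KD, 2.57 and 1.22 in EV and 2.27, 2.35 and 2.63 in OE. It fell in KD (-1.46 ± 0.24 (SE), adjusted p = 1.58e-05), and its EV and OE samples overlapped. Without EV 1 its OE value became 1.01 with an adjusted p of 0.00587, a call that the full set does not give. HIST1H4I stood at 1.70 and 1.15 CPM in NT, 1.15, 1.26 and 1.72 in KD, 1.48 and 1.38 in EV and 2.27, 1.36 and 1.66 in OE. No pair of lines was separate for this member, and no comparison passed the test.

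For the linker histones, HIST1H1C gave 23.8 and 21.1 CPM in NT, 34.4, 33.9 and 32.1 in KD, 34.6 and 31.8 in EV and 65.5, 66.6 and 57.6 in OE. It was 1.49-fold higher in KD than NT (0.57 ± 0.08 (SE), adjusted p = 7.81e-07) and 1.90-fold higher in OE than EV (0.93 ± 0.07 (SE), adjusted p = 3.12e-10). EV and KD lay at a like level, and EV was above NT by 0.57 (1.35e-05 as the adjusted p), so the empty-vector line stood as far from NT as KD did. HIST1H1E came to 0.189 and 0.397 CPM in NT, 0.498, 0.395 and 0.431 in KD, 0.624 and 0.568 in EV and 0.957, 1.45 and 1.08 in OE. OE passed the test (0.95 ± 0.33 (SE), adjusted p = 0.0200), a call lost without EV 1, EV 2 or OE 2 and with DESeq2 (0.0759), and KD did not.

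**Figure D3:**
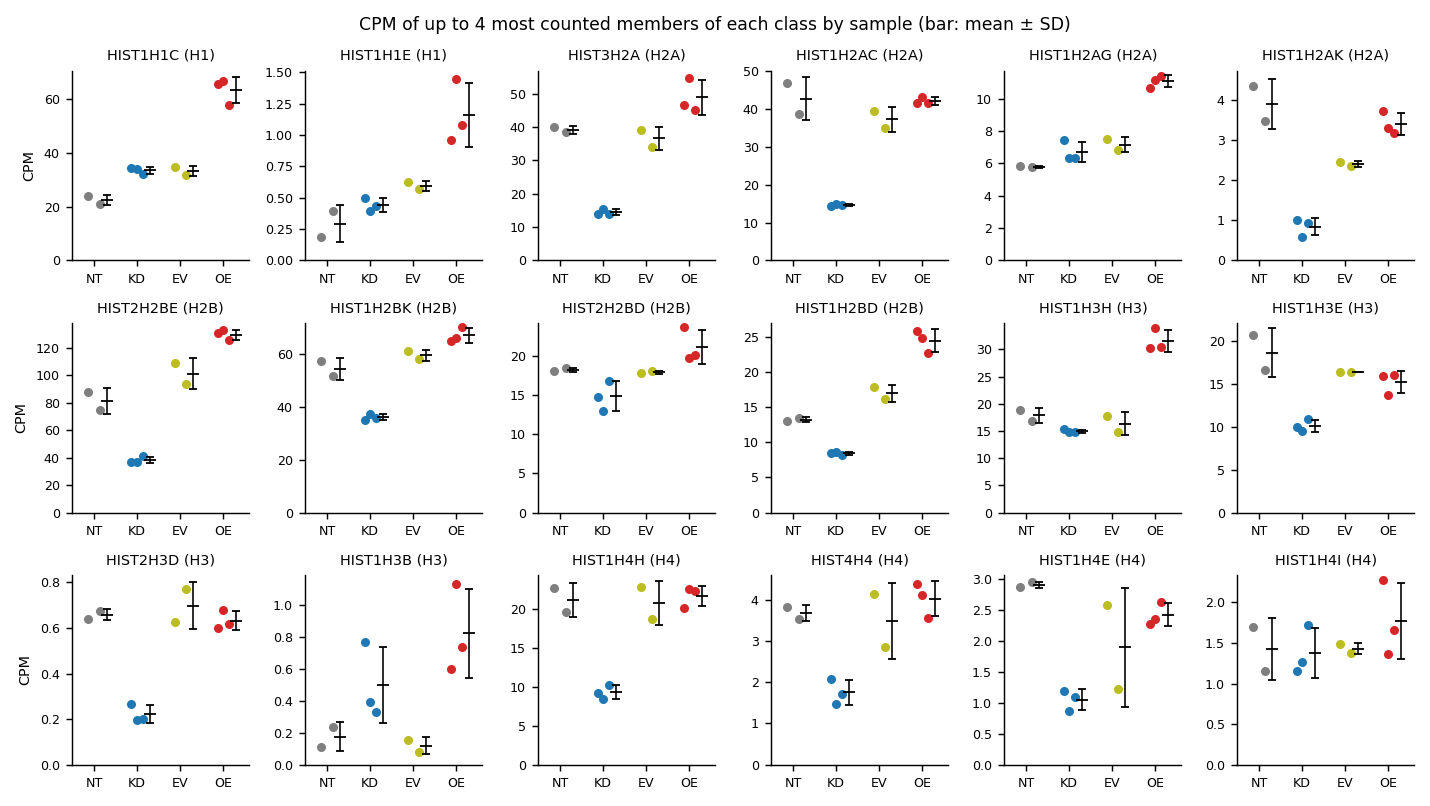
TMM-scaled CPM (vertical axes, from 0) of the most counted members, up to 4 a class, in the 4 lines, with a point for each sample and a bar for the mean ± SD. KD is separate and lowest in HIST3H2A, HIST1H2AC, HIST2H2BE and HIST1H4H, while HIST1H1C is lowest in NT and highest in OE.

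In the comparison of OE with EV, which asks what raising CPT1A did, 21 of 30 members were higher at an adjusted p under 0.05 beside 25.6% of all tested genes, of which 52% were called in either direction. No member was called lower by edgeR, none at an unadjusted p under 0.05, and none by limma-voom or DESeq2, beside 26.4% of all tested genes by edgeR. The OE samples lay wholly above EV in 22 members and wholly below in 1, HIST1H3E, beside 33.3% and 35.6% of all tested genes. The median was 0.46, beside -0.02 for all tested genes. Without EV 1, 16 members were called, the calls of HIST1H1E, HIST1H2AK, HIST1H2BF, HIST1H2BL, HIST2H2AC and HIST2H2BD being lost and that of HIST1H4E gained. Without EV 2, 14 were called, and those of HIST1H1E, HIST1H2AC, HIST1H2AK, HIST1H2BC, HIST1H2BK, HIST2H2AC and HIST2H2BD were lost. Of the 21 calls, 12 held whichever library was left out. DESeq2 called 15 higher.

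Across both arms, 12 members fell in KD and rose in OE, among them HIST2H2BE, HIST3H2A, HIST1H2AC, HIST1H2BK, HIST1H2BD and HIST1H3H. Another 7 fell in KD and were not called in OE, 5 rose in OE and were not called in KD, and 4 (HIST1H1C, HIST1H2BJ, HIST1H3B and HIST2H2AC) were higher in both. Of all tested genes, 3.71% fell in KD and rose in OE, 11.9% fell in KD and were not called in OE, 8.24% rose in OE and were not called in KD, and 13.7% were higher in both. HIST1H3B and HIST2H2AC averaged 3.75 and 9.25 counts in the controls, under the member minimum, so their place among the 4 is no support for a rise. HIST1H2AE and HIST1H4I were called in neither. Among the 12 that fell in KD and rose in OE, several calls rested on 1 control library. HIST1H2BC, HIST1H2BF, HIST1H3H, HIST2H2BD and HIST3H2BB lost the KD call without NT 1. HIST1H2AC, HIST1H2AK, HIST1H2BC, HIST1H2BK and HIST2H2BD lost the OE call without EV 2. The difference between the arms was tested as an interaction, OE over EV minus KD over NT. At an adjusted p under 0.05, 23 members were called positive and 0 negative, beside 20.3% and 24% of all tested genes and 44.3% in all. At an unadjusted p under 0.05, edgeR found 0 negative, and DESeq2 and limma-voom called 0 and 0. Leaving out 1 library gave 17 to 24 calls, and without NT 1 those of HIST1H1C, HIST1H2AG, HIST1H2AI, HIST1H2BF, HIST1H2BL and HIST2H3D were lost. DESeq2 called 20. HIST1H2AK had the largest value, 2.70 ± 0.28 (SE), adjusted p = 3.11e-08, and HIST1H2BJ, HIST1H1E, HIST1H3B and HIST2H2AC were among the 7 whose arms were not shown to differ. OE set directly against KD gave 26 members higher, beside 29.2% of all tested genes, 59.8% being called in either direction.

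The control lines differed in 5 members, 4 higher and 1 lower in EV than in NT, beside 18.5%, 15.5% and 34.1% of all tested genes higher, lower and in all. The higher members were HIST1H1C, HIST1H2AE, HIST1H2BD and HIST2H2BE, by 0.57, 0.84, 0.36 and 0.31 on the log2 scale, and the lower was HIST1H2AK at -0.70. The HIST1H1C call held whichever library was left out, while each of the other 4 was lost without at least 1 library. Drug and vector cannot be told apart here. At the stricter adjusted p of 0.0001, 13 members were called in KD, 6 in OE, 1 in EV against NT, 11 in the interaction and 20 in OE against KD, beside 29.1%, 21.9%, 8.16%, 15.9% and 31.9% of all tested genes.

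Extended members had a lower median than the others in KD. Of the 14 extended members 13 were lower in KD, with a median of -0.92, and 1 was higher. Of the 15 coding members whose annotated transcripts end at the stem-loop, 5 were lower, 3 higher and 7 not called, with a median of -0.10. The higher ones include HIST1H3B and HIST2H2AC, which averaged 3.75 and 9.25 counts in the controls. Both reached the member minimum only through KD and OE, so their higher values are partly fixed by that choice and are no support for a contrast. Of all tested genes 28.4% were lower and 29.1% higher, and the share called among the 15, 8 of them, was near the 57.5% called in all. Within H2A both extended H2A genes fell, by 1.54 and 1.44, while the 5 other H2A genes ranged from -2.20 to 0.84. Extended members summed to 287 and 251 CPM in NT and 132.16, 128.81 and 134.54 in KD, and the others to 106 and 92.8 in NT and 88.3, 87.8 and 86.1 in KD. HIST1H2BK held 45.5% of the sum of the others over all samples. HIST1H1C, also among them, rose from a mean of 22.4 CPM in NT to 33.5 in KD. Both are known sources of polyadenylated histone mRNA. The split is thus one of annotation and does not separate polyadenylated from tail-less mRNA. The extended share of member CPM was 69.6% ± 0.340 (SD, n = 2) in NT, 56.3% ± 0.302 (SD, n = 3) in KD, 67.8% ± 1.12 (SD, n = 2) in EV and 65.8% ± 0.642 (SD, n = 3) in OE. In OE the order was the other way, with medians of 0.36 for extended and 0.71 for other members. HIST1H3B and HIST2H2AC also count toward the 0.71, which carries the same limit. Extended members also had more counts, and gene counts do not show which transcript of a gene was read. No test was made between these groups of genes, and they were compared after the values were known.

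**Figure D4:**
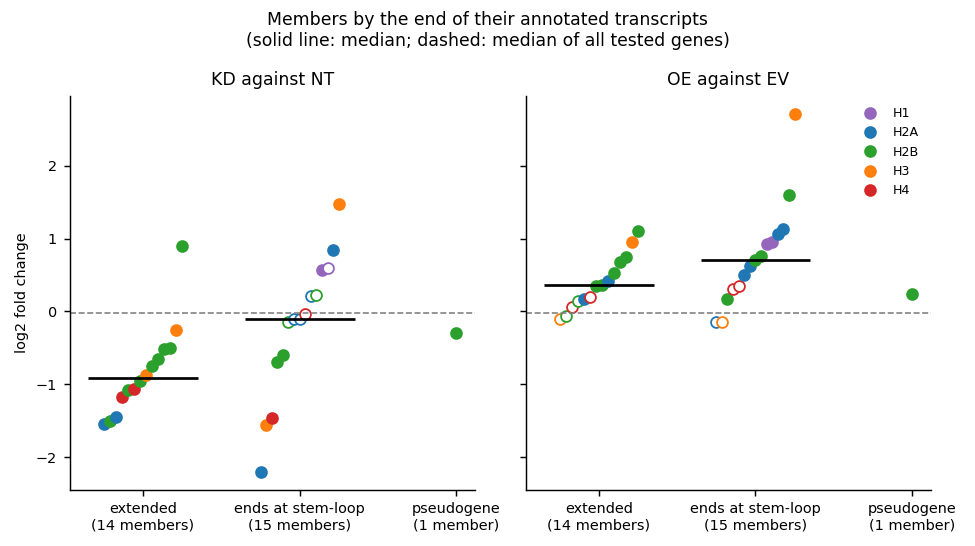
Fitted log2 fold change (vertical axes) of each member in KD against NT and OE against EV, by whether GENCODE holds a transcript more than 100 bases past the stem-loop, coloured by class and filled where the adjusted p is under 0.05. In KD the medians of extended and other members are -0.92 and -0.10, and in OE 0.36 and 0.71. The other members include HIST1H3B and HIST2H2AC, which reached the member minimum only through KD and OE.

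General knowledge lists 7 members as sources of polyadenylated histone mRNA (HIST1H1C, HIST1H2AC, HIST1H2BC, HIST1H2BD, HIST1H2BJ, HIST1H2BK and HIST2H2BE). Their mean share of member CPM was 57.2% for NT and 58.8% for KD. The EV mean was 61.8% and the OE mean 61.9%. Unlike the extended share, this share was thus not lower for KD than for NT, a contrast that was not tested. All 7 members were called in both arms. Of these, 5 fell and 2 rose in KD, and 7 rose in OE, with medians of -0.59 and 0.36. DESeq2 called 5 of the 7 in OE, and the OE calls of HIST1H2AC, HIST1H2BC and HIST1H2BK were each lost when 1 library was left out. Of all tested genes, 28.4% fell and 29.1% rose in KD and 25.6% rose in OE. Of 28 RNAs that carry no poly(A) tail, 10 were at 0 in every sample and 6 were tested, a measure of the tail-less RNA in these libraries. They summed to 29.9 and 25.3 CPM in NT, 13.8, 16.8 and 14.3 in KD, 20.6 and 19.1 in EV and 8.85, 15.1 and 16.1 in OE. By edgeR, 4 of the 6 fell in KD and 0 rose, also at an unadjusted p under 0.05, while DESeq2 called 1 lower. RN7SL1, an RNA of the signal recognition particle, fell by 1.15 in KD and by 0.80 in OE. RN7SL2 fell by 0.47 in KD and was at -0.34 in OE, and SNORA73B was called in neither. DESeq2 called 0 of the 6 lower in OE, so the OE call of RN7SL1 was lost there. The sum of tail-less RNAs was thus lower in KD, as the members were, and lower in OE, where the members were higher. Their part in the member results was not tested.

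Most H2A and H2B genes lie head to head in pairs around a shared promoter, and 6 pairs had both genes among the members, with 303 to 334 bases between their start codons. HIST2H2BE fell by 1.09 while HIST2H2AC was at 0.84, HIST1H2AK fell by 2.20 and HIST1H2BN by 0.51, and HIST1H2AC fell by 1.54 and HIST1H2BC by 0.51. HIST2H2AC averaged 9.25 counts in the controls, under the member minimum, so its higher value is partly fixed by the choice of members. HIST3H2A fell by 1.44 and HIST3H2BB by 0.74. HIST1H2BJ was at 0.90 and HIST1H2AG at 0.21, which did not pass the test, and HIST1H2AI and HIST1H2BL were at -0.10 and -0.15, neither of them called. The difference between partners was not tested.

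RefSeq promoters (GRCh38.p14, 250 bases before to 50 after the start) matched 29 members. Histone promoters are known for short elements: the octamer bound by OCT1 in H2A and H2B genes, CCAAT boxes, TATA boxes and the HINFP element of H4 genes. Searched on both strands, ATTTGCAT was in 4 of 7 H2A and 8 of 12 H2B promoters and in 0 of 10 others, beside 1.80% of all 27305 promoters. Also on both strands, CCAAT was in 26 of 29 (35.7% of all promoters) and GGTCCG in 4 of 4 H4 promoters and 2 others (11.2%). TATAAA was searched only on the strand of the gene, in the last 50 bases before the start, and was in 13 of 29 (2.92%). These letters can also overlap, as CCAAT and GGTCCG do in HIST2H2BE, and the windows of paired genes overlap, so partners are not independent. The promoters of HIST2H2BE, shared with HIST2H2AC, of HIST1H2AK, shared with HIST1H2BN, and of HIST1H4H are printed because the first 2 pairs had partners with unlike values in KD and the last fell in KD with no call in OE. HIST2H2AC reached the member minimum only through KD and OE, and its KD call was lost with DESeq2 and limma-voom, among other settings. Its unlike value is therefore no support for a difference between partners. Capitals mark the matches. A match is a description of letters, not of a bound factor.
HIST2H2BE, chr1:149886633-149886932, minus strand: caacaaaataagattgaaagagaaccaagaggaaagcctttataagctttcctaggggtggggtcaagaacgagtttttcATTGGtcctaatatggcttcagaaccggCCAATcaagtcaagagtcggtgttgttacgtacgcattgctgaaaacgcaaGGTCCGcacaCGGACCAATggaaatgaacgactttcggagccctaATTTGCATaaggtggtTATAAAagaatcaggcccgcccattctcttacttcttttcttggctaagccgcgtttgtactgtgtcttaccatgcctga
HIST1H2AK, chr6:27838326-27838625, minus strand: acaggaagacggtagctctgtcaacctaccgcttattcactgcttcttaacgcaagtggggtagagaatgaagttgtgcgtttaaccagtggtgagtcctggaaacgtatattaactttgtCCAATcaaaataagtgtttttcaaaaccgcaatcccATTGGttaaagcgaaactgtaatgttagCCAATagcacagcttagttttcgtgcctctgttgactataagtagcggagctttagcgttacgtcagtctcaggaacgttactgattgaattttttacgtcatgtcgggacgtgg
HIST1H4H, chr6:26285485-26285784, minus strand: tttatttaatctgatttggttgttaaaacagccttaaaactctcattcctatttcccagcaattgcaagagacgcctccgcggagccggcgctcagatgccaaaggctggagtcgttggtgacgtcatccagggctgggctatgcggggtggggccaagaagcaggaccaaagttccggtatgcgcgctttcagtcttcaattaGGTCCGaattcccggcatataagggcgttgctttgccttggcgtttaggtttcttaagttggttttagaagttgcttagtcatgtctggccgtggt

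Genes of DNA synthesis and of histone supply were set beside the members, and their counts are read against the 29.1% of all tested genes called higher and 28.4% lower in KD, and 25.6% and 26.4% in OE. All 15 S-phase genes tested, which make nucleotides or license and copy DNA, were higher in KD, with a median of 1.39, and 0 were lower at an adjusted or unadjusted p under 0.05 by edgeR and 0 by DESeq2 or limma-voom. MCM7 and MCM4, subunits of the replicative helicase, rose by 1.12 and 1.41 on the log2 scale and RRM1, a ribonucleotide reductase subunit, by 0.66. Their sum was 767 and 807 CPM in NT and 2039, 1831 and 1853 in KD, while the member sum was lowest there. In OE, 4 rose and 6 fell, and the median was -0.16. Cells in S phase were not counted.

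Most histone variants whose mRNAs can carry a poly(A) tail were called higher in each arm. They are replication-independent apart from H2AFX, which is known to make a stem-loop mRNA as well and was at 1.88 in KD and 1.08 in OE. Of 11 tested, 8 were higher and 1 lower in KD, with a median of 0.42, and 7 were higher and 0 lower in OE, at an unadjusted p and by the other tools as well. H2AFZ, which encodes H2A.Z, read 188 and 188 CPM in NT, 407, 385 and 384 in KD, 149 and 147 in EV and 203, 208 and 203 in OE. It was thus higher in both manipulated lines than in their controls. H2AFY, which encodes macroH2A1, rose by 0.42 in KD, and H3F3B, a source of H3.3, was at -0.09 in KD and -0.05 in OE and passed neither test.

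Among 11 genes of histone transcription, 6 rose and 0 fell in KD by edgeR, also unadjusted and by the other tools, and 3 rose and 6 fell in OE. YY1, a transcription factor, rose by 0.28 in KD and was at 0.02 in OE, and GON4L was at -0.05 and -0.04, neither called. CDK2, whose cyclin E complex acts on NPAT, rose by 1.11 in KD and fell by 0.20 in OE. NPAT itself, the coactivator of histone genes, was at -0.14 in KD, which did not pass the test, and fell by 0.47 in OE. CASP8AP2, another protein of the histone locus body, fell by 0.77 in OE. HINFP, which binds H4 promoters, rose by 0.29 in OE and was not called in KD.

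Of 18 genes of histone 3′ end processing, 8 rose and 1 fell in KD and 4 rose and 5 fell in OE, so the share called, 9 of 18 in each arm, was close to the 57.5% and 52% of all tested genes. SRRT rose by 0.23 in KD and was at -0.06 in OE. CPSF2 and CPSF1, subunits of the cleavage factor, were at 0.09 and 0.08 in KD, where neither was called, and at -0.26 and 0.22 in OE, where both were. SLBP read 42.6 and 49.2 CPM in NT, 67.0, 60.6 and 68.1 in KD, 47.5 and 49.2 in EV and 47.1, 44.6 and 49.9 in OE. It rose by 0.51 in KD, and EV and OE overlapped. LSM10 and LSM11, subunits of U7 snRNP, were at 0.31 and 0.19 in KD, of which only LSM10 passed the test, and LSM10 rose by 0.34 and LSM11 fell by 0.30 in OE. Of 10 genes of histone mRNA decay, 3 rose and 1 fell in KD and 1 rose and 5 fell in OE, a share called that was under that of all tested genes in KD and close to it in OE. ERI1, the exonuclease that trims the stem-loop, rose by 0.30 in KD, and UPF1 rose in both arms, by 0.45 and 0.32. SMG1, the kinase that acts on UPF1, was at -0.01 in KD and -0.26 in OE, of which the latter passed the test, and EXOSC10, an exosome subunit, was called in neither.

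Histone chaperones hold and deliver histones to chromatin. Of 23, 17 rose and 3 fell in KD, and 7 rose and 9 fell in OE. In OE both shares were above the 25.6% and 26.4% of all tested genes. ASF1B, which hands H3 and H4 to the replication fork, read 14.1 and 15.1 CPM in NT, 57.0, 56.7 and 52.1 in KD, 19.7 and 21.4 in EV and 26.3, 27.1 and 25.2 in OE. The CAF-1 subunit CHAF1B rose by 1.44 in KD, and NASP, which stores H3 and H4, rose by 0.68 in KD and fell by 0.43 in OE. NAP1L1, a carrier of H2A and H2B, fell in both arms, by 0.41 and 0.84. SSRP1, a subunit of FACT, rose by 0.49 and 0.21, and RBBP4, the small CAF-1 subunit, was at 0.08 in KD, which was not called, and fell by 0.13 in OE.

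**Figure D5:**
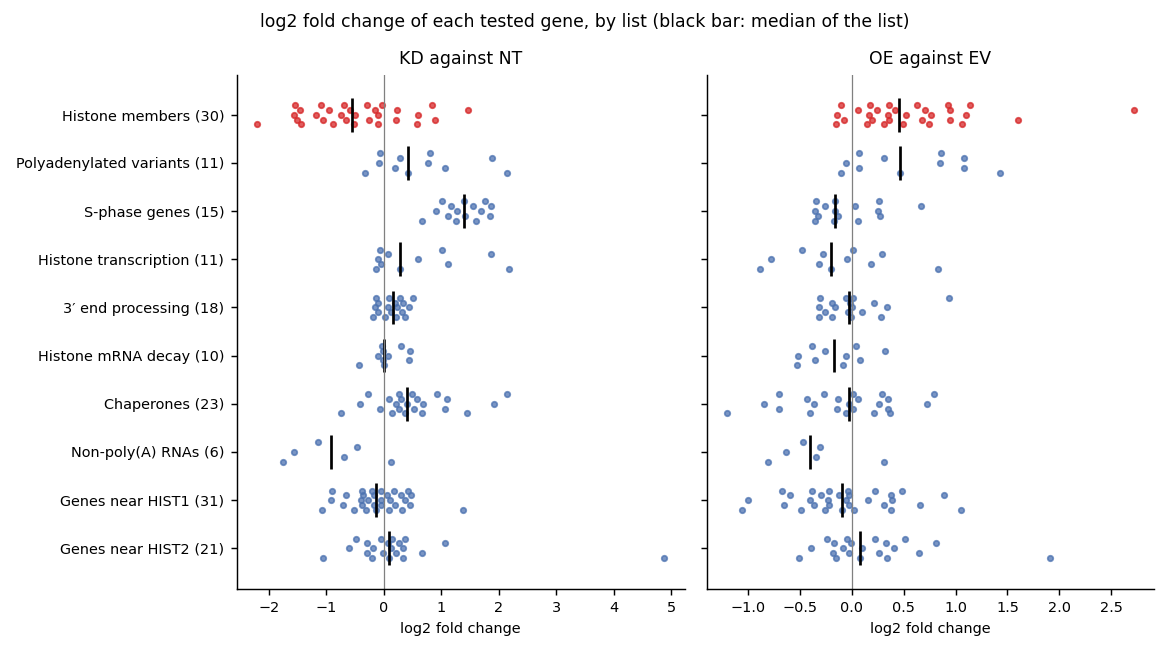
Fitted log2 fold change (horizontal axes) of each tested gene of the members and of the lists of histone variants, S-phase genes, histone transcription, processing, decay and chaperones, tail-less RNAs and neighbouring genes, in KD against NT and OE against EV, with a bar at each median. In KD the member median is -0.55 and the S-phase median 1.39, and in OE they are 0.46 and -0.16.

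Genes beside the clusters were examined because neighbours can share copy number and chromatin. Of 31 tested genes beside HIST1, 6 rose and 13 fell in KD with a median of -0.13, and of 21 beside HIST2, 8 rose and 6 fell with a median of 0.10. In OE the medians were -0.09 and 0.08. The shares called in KD, 19 of 31 and 14 of 21, were near the 57.5% of all tested genes, of which 29.1% rose and 28.4% fell. Beside HIST1 the share that fell was thus above that of all tested genes and the share that rose below it, a difference that was not tested. With HIST1 and HIST2 members taken relative to the median neighbour of their cluster, and the HIST3 and HIST4 members, for which no neighbours were listed, left as they were, the member median was -0.43 in KD and 0.52 in OE, a setting added with the values known. Spans of 5 members hold part of another named gene (HIST1H2BC, HIST1H2BD, HIST2H2BF, HIST3H2A and HIST3H2BB), and 9 others overlap only genes without a name. Strand use in counting is not known, so reads of the overlapping genes may be shared.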

How the data were processed

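RNA was sequenced as paired reads of 150 bp from 10 samples of 4 LNCaP-C4-2 lines. The authors removed adapters with BBDuk, dropped reads under 50 bp, mapped with STAR 2.6.0a (version per the submitters' processing notes) to Ensembl release 96 of hg38 and deposited raw counts per gene symbol. Strand use and reads that fit several genes are not given in the sources used here. TMM scaling and the quasi-likelihood F test of edgeR 4.0.16 (R 4.3.3), with 1 mean per line and all 10 samples in the fit, were applied to the 17230 genes that passed filterByExpr. Benjamini-Hochberg adjustment covered every one of these genes, and calls needed an adjusted p under 0.05. CPM are TMM-scaled. DESeq2 1.42.0 and limma-voom 3.58.1, other scalings, filters, thresholds, a replicate block and leaving out each library were alternatives. Symbols were matched to GENCODE version 44, and promoters came from RefSeq GRCh38.p14. A stem-loop was a 16-base match within 150 bases after the stop codon.

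Values in every sample are given for up to 4 members of a class with the highest mean count and for the 5 called members with the largest change in KD against NT, OE against EV and EV against NT. Genes named from the lists of histone variants, S phase, histone supply and tail-less RNAs were the 3 with most counts of each, with regulators such as SLBP and NPAT. The members and lists were chosen with earlier results of these data known. Names ending in PS and a digit were also taken as pseudogenes.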

Additional observations from a re-analysis of the deposited data

How the results depend on the processing

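Direction of the member medians held in KD against NT, OE against EV, OE against KD and the interaction under every alternative run, while the small median of EV against NT changed sign without NT 1 and relative to neighbouring genes. Depth limits the members at the low end, since 3 counts correspond to 0.0995 to 0.136 CPM and HIST1H1E, HIST1H3B, HIST2H2AC and HIST2H3D averaged 11.4 to 16.5 counts. The members chosen, the extended group and the alternatives relative to neighbours and without overlapping members were settled with the values known. Fits of an arm alone could not be run for the interaction.

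At an adjusted p under 0.0001, 13 members were called in KD against NT, 6 in OE against EV, 1 in EV against NT and 11 in the interaction. Leaving out 1 library at a time gave 15 to 23 calls in KD, 14 to 21 in OE and 2 to 7 in EV against NT. The medians then ranged from -0.65 to -0.35 in KD, 0.39 to 0.58 in OE, -0.14 to 0.092 in EV against NT and 0.86 to 1.30 in the interaction. For class ratios in KD the ranges were -1.34 to -1.17 for H2A, -0.83 to -0.65 for H2B and -0.64 to -0.42 for H3. In OE they were 0.26 to 0.44 for H2A and -0.051 to 0.31 for H4, and in EV against NT -0.22 to -0.040 for H2A, 0.10 to 0.28 for H2B, -0.27 to -0.041 for H3 and -0.27 to 0.087 for H4. The H4 ratio of EV to NT changed sign without NT 1 (0.02) or EV 2 (0.087), and that of OE to EV without EV 2 (-0.051).

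With at least 10 counts in every sample the medians were -0.67 in KD and 0.35 in OE, and with a member minimum of 50 counts -0.72 in KD. With HIST1 and HIST2 members relative to neighbouring genes they were -0.43 in KD, 0.14 in EV against NT, 1.21 in OE against KD and 1.11 in the interaction. Without members that overlap a named gene they were -0.29 in KD and 0.92 in OE against KD. With library size in place of TMM they were 0.36 in OE, 1.00 in OE against KD and 1.06 in the interaction, a scaling that moved the median of all tested genes by -0.10, -0.13 and -0.13 in these comparisons. Class ratios in OE were then 0.83 for H1, 0.25 for H2A, 0.23 for H2B and 0.43 for H3. The median member of a class in place of its sum gave -0.11 for H2A and -0.59 for H2B in KD, 0.50 for H2A, 0.53 for H2B and 0.42 for H3 in OE, and 0.80 for H1 and 0.066 for H2B in EV against NT. The cause of these shifts was not tested.

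Sign changes of single members all concerned members that were not called. In KD, leaving out 1 library at a time gave -0.19 to 0.040 for HIST1H2AE, -0.39 to 0.28 for HIST1H2AI, -0.55 to 0.44 for HIST1H2BL, -0.26 to 1.01 for HIST1H2BO and -0.28 to 0.27 for HIST1H4I. In OE it gave -0.35 to 0.12 for HIST1H2AE, -0.086 to 1.01 for HIST1H4E, -0.070 to 0.22 for HIST1H4H, -0.27 to 0.016 for HIST2H3D and -0.040 to 0.51 for HIST4H4. Library size in place of TMM gave -0.037 for HIST1H4H in OE.

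Replicate numbers did not pair the samples: over 13 same-numbered pairs of samples in different lines the mean correlation of deviations was -0.0028, beside 0.0016 for 24 other pairs. With the replicate number as a block, 23 members were called in KD, 20 in OE, 7 in EV against NT, 26 in OE against KD and 24 in the interaction, with medians of -0.55, 0.48, -0.03, 1.13 and 1.19.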
